A study of Mus musculus with 3 samples.

Results

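Under hypoxia, 10 genes with higher transcript levels in the library treated with triiodothyronine (T3, the active thyroid hormone) than in the untreated hypoxic library are described: Hr, Klf9, Dio3, Dbp, Sema7a, Kcnj10, Shh, Cyp26b1, Cldn12 and Mfap3l. They were chosen by symbol, as known thyroid hormone response genes and as genes seen higher with T3 in these data, and all 10 were found among the 24054 genes of the deposited table. The first comparison below was therefore used to choose them, and their values in it are a description. RNA came from primary cortical neurons of C57BL/6 mice, taken from the brain at embryonic day 17 and cultured for 7 days. Hypoxia with T3 was 0.2% oxygen for 7 hours with 5 nM T3, hypoxia was 0.2% oxygen for 7 hours without the hormone, and control was 21% oxygen. Each group had 1 library, so that no difference was tested against variation between cultures, and the intervals given cover counting error only. The labels state no pooling of embryos, and the hormone content of the culture medium is not given in the sources used here.

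Thyroid hormone acts mainly through nuclear receptors, encoded by Thra and Thrb, that sit on DNA with retinoid X receptors. Without hormone these complexes tend to hold corepressors, and binding of T3 exchanges them for coactivators. In the developing cortex the hormone governs neuronal migration, synapse formation and glial maturation, and its local level is set by deiodinases that make or destroy T3. Hr and Klf9 are widely used as readouts of the hormone in brain tissue.

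The libraries held 22533574 reads for hypoxia with T3, 17118865 for hypoxia and 18081904 for control, and 1 read stood for 0.0425, 0.0552 and 0.0463 CPM. Neuron markers summed to 6073, 6048 and 6342 CPM in that order and none of the 10 was at 0. That sum mixes directions, with Tubb3 at 739, 873 and 1771 CPM and Dcx at 2366, 2271 and 1926 CPM. Astrocyte markers summed to 597, 585 and 553 CPM, and oligodendrocyte lineage markers to 206, 204 and 349 CPM. Microglial markers summed to at most 2.13 CPM and endothelial markers to at most 2.099 CPM in any library, and mural and fibroblast markers to 12.5, 12.3 and 8.90 CPM. The ribosomal RNA precursor gene Rn45s took 0.903% of the reads in hypoxia with T3, 0.541% in hypoxia and 0.310% in control, an order that also holds for several members, and its part in the results was not tested.

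Upstream sequence from RefSeq (GRCm38.p6, the assembly that mm10 names) was found for 8 of the 10 members. Hr and Shh had none, so nothing about motifs below covers them. The stretches printed here are those of Klf9 and Dbp, which matched a searched motif, and of Sema7a and Cldn12, whose levels lay on opposite sides of control under hypoxia. They run 5′ to 3′ on the strand of the gene and end before both the RefSeq start and the GENCODE start of the gene. The GENCODE start of Dbp lies upstream of its RefSeq start, so that its stretch is shorter. Klf9 is at chr19:23140976-23141225 (plus strand), Dbp at chr7:45704997-45705087 (plus), Sema7a at chr9:57939862-57940111 (plus) and Cldn12 at chr5:5514977-5515226 (minus). Capitals mark ACGTG, a form of the core of the hypoxia response element. The other form of that core, GCGTG, was not searched and is not marked.
Klf9: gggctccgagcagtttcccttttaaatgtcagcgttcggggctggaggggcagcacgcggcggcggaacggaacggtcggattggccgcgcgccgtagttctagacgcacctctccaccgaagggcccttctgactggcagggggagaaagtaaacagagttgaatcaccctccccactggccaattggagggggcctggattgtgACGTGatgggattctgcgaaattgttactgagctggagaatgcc
Dbp: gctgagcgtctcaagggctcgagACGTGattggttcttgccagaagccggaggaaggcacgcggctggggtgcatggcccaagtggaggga
Sema7a: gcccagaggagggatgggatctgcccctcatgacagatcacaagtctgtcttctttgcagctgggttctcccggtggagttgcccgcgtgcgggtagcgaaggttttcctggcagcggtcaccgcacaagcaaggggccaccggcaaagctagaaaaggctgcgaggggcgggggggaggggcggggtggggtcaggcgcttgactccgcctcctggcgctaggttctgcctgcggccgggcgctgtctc
Cldn12: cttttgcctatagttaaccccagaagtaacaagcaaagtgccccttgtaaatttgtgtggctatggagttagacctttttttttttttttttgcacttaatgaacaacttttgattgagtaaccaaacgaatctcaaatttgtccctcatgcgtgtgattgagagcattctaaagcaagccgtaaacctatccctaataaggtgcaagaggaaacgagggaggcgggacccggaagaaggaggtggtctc

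The motifs were searched on both strands of windows from 250 bases before to 50 bases after each RefSeq start, of which the 8 members had 12. The hormone receptor hexamer AGGTCA was in none of these windows, against 16.3% of all 32851 windows and 18.1% of genes with windows. A direct repeat of that word with any 4 bases between its copies was also in none, against 0.0152% of windows and 0.0148% of genes. ACGTG was in the windows of 2 of the 8 members, against 21.8% of the 27025 genes with such windows. It lay at bases -44 to -40 from the RefSeq start of Klf9 and -227 to -223 from the RefSeq start of Dbp. The E-box CACGTG, which contains ACGTG, was in none of the members' windows, against 7.15% of all windows and 8.09% of genes. These words describe the letters of these windows and say nothing about the binding of a factor there or elsewhere.

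Hypoxia with T3 was set against hypoxia, with 1 library each, so that the hormone and differences between cultures cannot be told apart. All 10 members were higher with T3, as they were chosen to be, from 1.88-fold for Shh to 5.02-fold for Hr among those whose libraries averaged 1 CPM or more. With 1 CPM added to each value, 7 of the 9 members that passed that filter were at least 2-fold higher, against 0.126% of the 12692 genes compared, and none was at least 2-fold lower, against 0.063%. Only 16 genes in all met that rule, so that the members make up 7 of them, and nothing is read from this share. In bulk RNA, fewer cells of a type and less RNA per cell cannot be told apart.

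**Figure D1:**
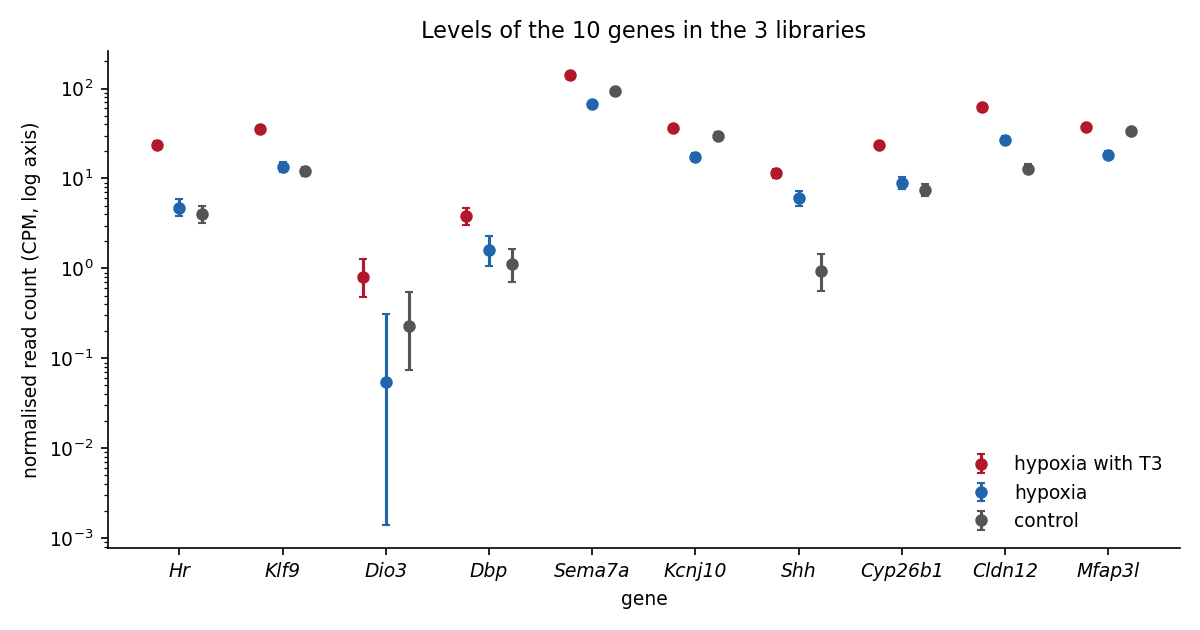
Normalised read count (CPM, log axis) of each gene in hypoxia with T3 (red), hypoxia (blue) and control (grey), 1 library each, with exact 95% Poisson intervals for counting error. Hr stood at 23.9 CPM with T3 and below 5 CPM in the other libraries, while Kcnj10 and Mfap3l were low in hypoxia alone.

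Hr and Klf9 encode nuclear regulators. Hr, a corepressor that binds the thyroid hormone receptor and the vitamin D receptor (chromosome 14, 70552212 to 70573548, plus strand), had 561 reads or 23.9 CPM in hypoxia with T3, 86 reads or 4.75 CPM in hypoxia and 87 reads or 4.03 CPM in control. Its level with T3 was 5.02-fold that in hypoxia (3.996 to 6.38) and 5.92-fold that in control (4.71 to 7.50), and no other member differed by as much from hypoxia on the scale with 1 CPM added. Without the hormone, the hypoxic library was at 1.18-fold control (0.864 to 1.61) and the depth did not allow a difference to be seen. The authors' deposited table for hypoxia with T3 against control gave Hr 5.62-fold and a false discovery rate of 0.0295. Which test produced these rates is not given in the sources used here, and 1 library per group gave it no measure of variation between cultures.

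Klf9, a Krüppel-like transcription factor induced by thyroid hormone and by glucocorticoids (chromosome 19, 23141226 to 23168134, plus strand), reached 35.8 CPM in hypoxia with T3, 13.4 CPM in hypoxia and 11.96 CPM in control. The value with T3 was 2.68-fold that in hypoxia (2.32 to 3.10) and 2.99-fold that in control (2.60 to 3.45). Hypoxia alone was at 1.12-fold control, with an interval of 0.934 to 1.34 that includes no difference. In the authors' deposited table for hypoxia with T3 against control, Klf9 stood at 2.84-fold, and its false discovery rate was 0.466.

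Dbp, a PAR-type bZIP factor that follows the circadian clock (chromosome 7, 45705088 to 45710203, plus strand), was low in every library. It had 90 reads or 3.83 CPM in hypoxia with T3, 29 reads or 1.60 CPM in hypoxia and 24 reads or 1.11 CPM in control. The ratio of hypoxia with T3 over hypoxia was 2.39-fold (1.56 to 3.77), and 0.89 on the log2 scale with 1 CPM added, short of the 2-fold rule. Hypoxia was at 1.44-fold control, with an interval of 0.810 to 2.58. Exons of Sphk2, on the opposite strand, cover 18.0% of the exonic bases of Dbp. The library kit keeps strand, but whether counting used it is not given in the sources used here. Sphk2 itself was at 23.4 CPM in hypoxia with T3, 21.8 CPM in hypoxia and 23.3 CPM in control.

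Enzymes that remove hormone-like signals formed another pair. Dio3, the deiodinase that inactivates thyroid hormone and is encoded by 1 exon (chromosome 12, 110279068 to 110281097, plus strand), had 19 reads in hypoxia with T3, 1 read in hypoxia and 5 reads in control, or 0.808, 0.0552 and 0.232 CPM. Its mean of 0.365 CPM kept it out of the genes compared. The ratio of hypoxia with T3 over control was 3.49 with a counting interval of 1.26 to 11.9, and that of hypoxia over control was 0.238 with an interval of 0.00504 to 2.13. The ratio over hypoxia, 14.6 (2.33 to 608), rests on the 1 read there.

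Cyp26b1, which degrades retinoic acid (chromosome 6, 84571414 to 84593908, minus strand), was at 23.5 CPM in hypoxia with T3, 9.003 CPM in hypoxia and 7.51 CPM in control. It was 2.61-fold higher with T3 than in hypoxia (2.19 to 3.12) and 3.13-fold higher than in control (2.62 to 3.75), while hypoxia alone was at 1.199-fold control (0.959 to 1.5). Hr, Klf9, Dbp and Cyp26b1 thus share an order in which hypoxia with T3 stood above libraries whose intervals include no difference between hypoxia and control.

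**Figure D2:**
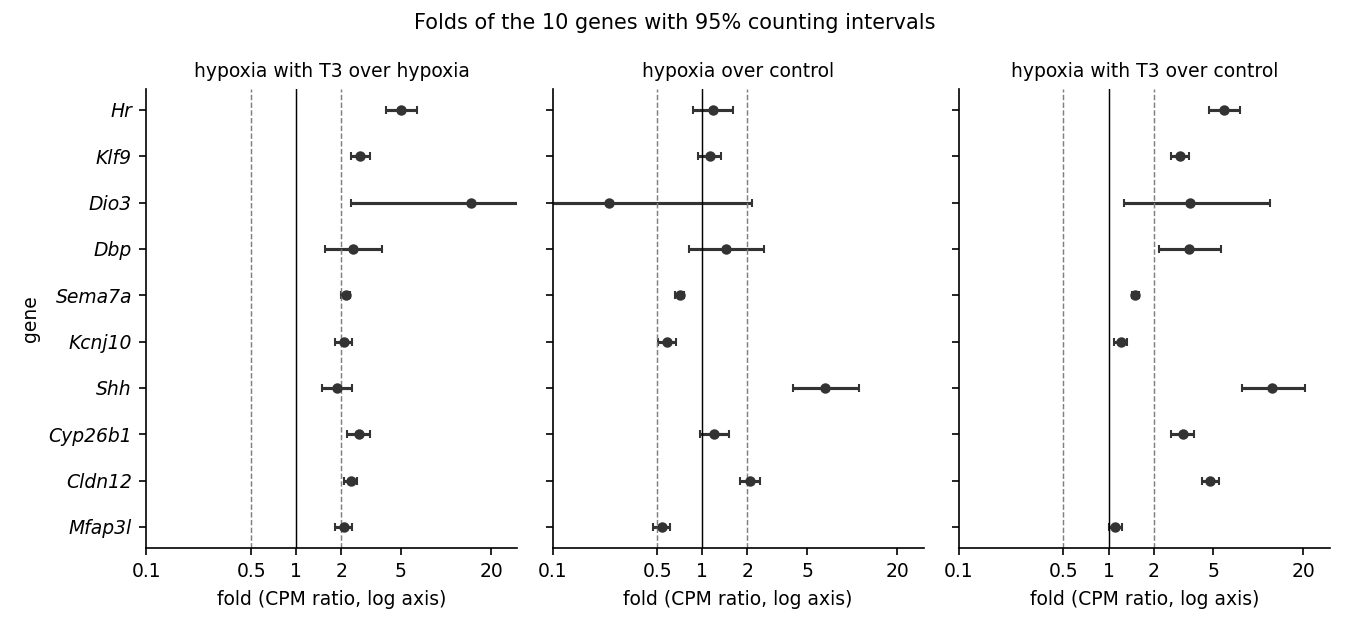
Ratios of CPM (fold, log axis) of each gene in the 3 comparisons, with exact 95% Clopper-Pearson intervals for counting error and dashed lines at 0.5-fold and 2-fold. The Dio3 interval runs beyond the axis in the first panel (2.33 to 608) and in the second (0.00504 to 2.13), and Shh stands farthest to the right in the panel of hypoxia over control.

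The genes of secreted and membrane proteins differed more among themselves in the ratio of hypoxia over control. Shh, the morphogen sonic hedgehog (chromosome 5, 28456815 to 28467256, minus strand), had 268 reads or 11.4 CPM in hypoxia with T3, 110 reads or 6.08 CPM in hypoxia and 20 reads or 0.927 CPM in control. The libraries stood apart in that order, with 1.88-fold between hypoxia with T3 and hypoxia (1.497 to 2.36) and 6.55-fold between hypoxia and control (4.05 to 11.1). Over control, hypoxia with T3 was at 12.3-fold (7.80 to 20.4), the widest gap of any member in that comparison. The authors' deposited table gave Shh 11.6-fold and a false discovery rate of 0.000438 for hypoxia with T3 against control, and the authors' deposited table for hypoxia against control gave 6.25-fold and 0.0388. The antisense model 9530036O11Rik overlaps 15.7% of the exonic bases of Shh and was at most 0.166 CPM in any library.

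Cldn12, a claudin of cell junctions (chromosome 5, 5489537 to 5514958, minus strand), kept the same order at 61.7 CPM in hypoxia with T3, 26.8 CPM in hypoxia and 12.9 CPM in control. Hypoxia with T3 was at 2.30-fold hypoxia (2.08 to 2.56), hypoxia at 2.08-fold control (1.79 to 2.42), and hypoxia with T3 at 4.79-fold control (4.21 to 5.47). On the scale with 1 CPM added the ratio of hypoxia over control was 1.001, just past the rule, and it fell short under each of the 3 other scalings and with 2 CPM added. The endothelial claudin Cldn5 had 0 reads in both hypoxic libraries and was at 0.0463 CPM in control.

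Sema7a, a semaphorin anchored to the membrane by a lipid (chromosome 9, 57940112 to 57962865, plus strand), was the most abundant member at 142 CPM in hypoxia with T3, 66.7 CPM in hypoxia and 94.7 CPM in control. Hypoxia was 1.42-fold lower than control (1.32 to 1.53), whereas hypoxia with T3 was 1.504-fold higher than control (1.42 to 1.59). The ratio between the hypoxic libraries was 2.14-fold (1.999 to 2.28).

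Kcnj10, the inwardly rectifying potassium channel Kir4.1 of astrocytes and oligodendrocytes (chromosome 1, 172341210 to 172374085, plus strand), reached 36.1 CPM in hypoxia with T3, 17.4 CPM in hypoxia and 30.03 CPM in control. Hypoxia was 1.73-fold lower than control (1.51 to 1.98), and hypoxia with T3 was 2.08-fold higher than hypoxia (1.82 to 2.37) and 1.202-fold higher than control (1.08 to 1.33). Of 8 astrocyte markers compared, none was 2-fold apart between the hypoxic libraries (median log2 ratio -0.03, from -0.73 to 0.27). Of these markers 3 were above 0, against 54.1% of all genes compared. The lowest was Gfap, the glial intermediate filament, at 13.9 CPM in hypoxia with T3 and 23.7 CPM in hypoxia, and the highest Slc1a2, a glutamate transporter, at 169 CPM in hypoxia with T3 and 140 CPM in hypoxia. Aqp4, the glial water channel, was at 13.1 CPM in hypoxia with T3 and 13.2 CPM in hypoxia, and Gjb6 was at 0 in both. Oligodendrocyte lineage markers, which summed to 204 CPM in hypoxia and 349 CPM in control, moved with Kcnj10 in that comparison, and their part in it was not tested.

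Mfap3l, a membrane glycoprotein named for its likeness to a microfibril-associated protein (chromosome 8, 60632827 to 60676729, plus strand), reached 37.8 CPM in hypoxia with T3, 18.2 CPM in hypoxia and 34.1 CPM in control. Hypoxia was 1.87-fold lower than control (1.64 to 2.14), and hypoxia with T3 was 2.07-fold higher than hypoxia (1.82 to 2.36). The ratio of hypoxia with T3 over control was 1.11 (1.003 to 1.22), near no difference, and turned to -0.05 on the log2 scale with libraries scaled to equal sums, against 0.14 with the authors' scaling. Sema7a, Kcnj10 and Mfap3l were thus the members below control in hypoxia with an interval that leaves out no difference, and all of them were above control in hypoxia with T3 under the authors' scaling.

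Compared per length of exon, Sema7a led in every library, at 43.2 CPM per kb in hypoxia with T3, 20.2 in hypoxia and 28.7 in control. Cldn12 followed in hypoxia with T3 at 14.6 CPM per kb and in hypoxia at 6.34, but in control it stood at 3.05, below Kcnj10 at 5.55 and Mfap3l at 4.99. Shh was at 4.003 CPM per kb in hypoxia with T3, close to Cyp26b1 at 4.39 and Hr at 3.45, and in control at 0.326. Dio3 was lowest throughout, at 0.398 CPM per kb in hypoxia with T3, 0.0272 in hypoxia and 0.114 in control. Summed over the 10 members the level was 377 CPM in hypoxia with T3, 164 CPM in hypoxia and 198 CPM in control, of which Sema7a is the largest part.

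**Figure D3:**
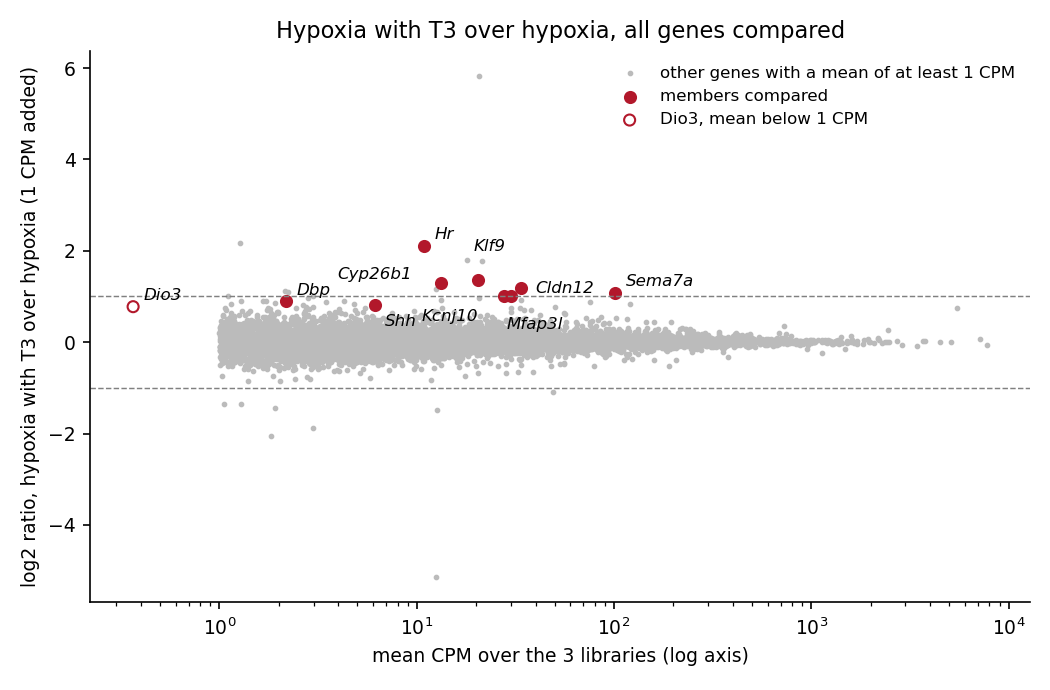
Log2 ratio of hypoxia with T3 over hypoxia with 1 CPM added against the mean CPM over the 3 libraries (log axis), for the genes compared (grey), the 9 members compared (red) and Dio3 (open circle), with dashed lines at 2-fold. The 9 members compared lie at 0.81 to 2.11, above nearly all genes of like level. They were chosen as higher in this comparison, so nothing is read from their place.

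The spread of ratios between the hypoxic libraries depended on the level. Of 2327 genes with a mean from 1 to below 5 CPM, which include Dbp, 52 were 1.5-fold or more higher with T3 and 21 as far lower. Of 3407 genes from 5 to below 20 CPM, which include Hr, Shh and Cyp26b1, these counts were 17 and 9. Of 2957 genes from 20 to below 50 CPM, which include Klf9, Kcnj10, Cldn12 and Mfap3l, they were 15 and 5. From 50 to below 200 CPM, a range that includes Sema7a, 6 of 3014 genes were that much higher and 0 that much lower. The counts of higher genes include the members named, which were chosen as higher with T3.

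Kcnj10 and Mfap3l, both at 1.01 on the log2 scale, lay just inside the 2-fold rule, and with libraries scaled to equal sums or with median-of-ratios size factors both fell just outside it, which left 5 members past the rule. Dbp, at 0.89, and Shh, at 0.81, lay outside it, and of other genes Lrch4, at 0.97, and Moap1, at 0.96, came nearest from below. Lrch4, with 14 reads in hypoxia, shares 73.8% of its 31-base words with transcripts of other genes, and Moap1 shares 85.7%. The 9 genes past the rule that are not members include Bcl2l11, the BH3-only death protein BIM, at 22.2 CPM in hypoxia with T3, 9.39 CPM in hypoxia and 6.12 CPM in control, and Oxtr, the oxytocin receptor, at 4.42, 1.49 and 0.556 CPM. Of the 7 of these genes with an annotation, 5 (Gm5643, Rsc1a1, Snurf, Eif3j2 and H2-T22) share more than 50% of their 31-base words with transcripts of other genes, so that their reads may not be assigned firmly. Among the members the largest such share was 1.60%, for Kcnj10, and it was 0% for 8 of them.

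The genes next to each member were set beside it. Of the 20 nearest genes on either side with a mean of at least 1 CPM, none was 2-fold apart between the hypoxic libraries, and their log2 ratios of hypoxia with T3 over hypoxia ran from -0.29 to 0.37. Hr lies between Reep4, at 2.42 CPM in hypoxia with T3 and 2.37 CPM in hypoxia, and Nudt18, at 11.01 and 10.4 CPM. Kcnj9, a potassium channel gene 11.9 kb from Kcnj10, was at 11.3 CPM in hypoxia with T3 and 11.9 CPM in hypoxia. Car11, 0.406 kb from Dbp, was at 26.4 and 25.1 CPM.

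In the comparison of hypoxia with control, which shares the hypoxia library with the first comparison, 2 of the 9 members compared were at least 2-fold higher, Shh and Cldn12, against 1.99% of all genes compared, and none was at least 2-fold lower, against 4.92%. The median log2 ratio was 0.19 for the 9 members and 0.05 for all 12692 genes. In the comparison of hypoxia with T3 and control, 6 members (Hr, Klf9, Dbp, Shh, Cyp26b1 and Cldn12) were at least 2-fold higher, against 2.06% of all genes, and none was lower, against 4.59%, with medians of 1.505 for the members and 0.08 for all genes. With 2 CPM added Dbp was no longer past the rule, which left 5. Over all genes, hypoxia against control gave 252 higher and 624 lower, or 192 and 974 with libraries scaled to equal sums, and hypoxia with T3 against control gave 262 and 582, or 199 and 920. These comparisons share libraries with that which chose the members, and their values for each member are to be read side by side. In the authors' deposited table for hypoxia with T3 against control, 2 of the 9 members it holds were higher with a false discovery rate below 0.05, Hr and Shh, against 0.403% of its 13152 genes. In the authors' deposited table for hypoxia against control 1 was, Shh, against 0.388% of genes.

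Other genes of the hormone's pathway are given beside the members, whose ratios here were part of how they were chosen. Of 24 further genes listed as induced by thyroid hormone, 21 were compared. Between the hypoxic libraries, none of these was at least 2-fold apart in either direction. Their median log2 ratio of hypoxia with T3 over hypoxia was 0.09 against 0.01 for all genes. Of the 21, 16 were above 0, against 54.1% of all genes compared. The highest were Flywch2, at 3.02 CPM in hypoxia with T3 and 1.55 CPM in hypoxia, Abcd2, a peroxisomal fatty acid transporter, at 9.99 and 6.08 CPM, and Itpr1, an intracellular calcium channel, at 73.4 and 50.5 CPM. Mobp, a myelin protein, was at 1.06 and 1.66 CPM. At 1.19 CPM in hypoxia with T3, 0.773 CPM in hypoxia and 3.80 CPM in control, Thrsp alone was past the rule against control.

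Among 18 genes compared for receptors, transporters, deiodinases and cofactors of the hormone, the median log2 ratio between the hypoxic libraries was 0.00. None was 2-fold apart there on the scale with 1 CPM added. Thrb, the beta receptor, was at 5.10 CPM in hypoxia with T3, 5.19 CPM in hypoxia and 20.8 CPM in control, the only gene of that list past the rule in either comparison with control. Ttr, a carrier of the hormone in blood and cerebrospinal fluid, was at 0.510 CPM in hypoxia with T3, 1.71 CPM in hypoxia and 1.95 CPM in control. From 12 reads in hypoxia with T3 and 31 in hypoxia, Ttr was 3.36-fold lower with T3 (1.68 to 7.17). With 1 CPM added its log2 ratio was -0.84. Slc16a10, an amino acid and hormone transporter, was at 4.51 CPM in hypoxia with T3 and 2.98 CPM in hypoxia.

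**Figure D4:**
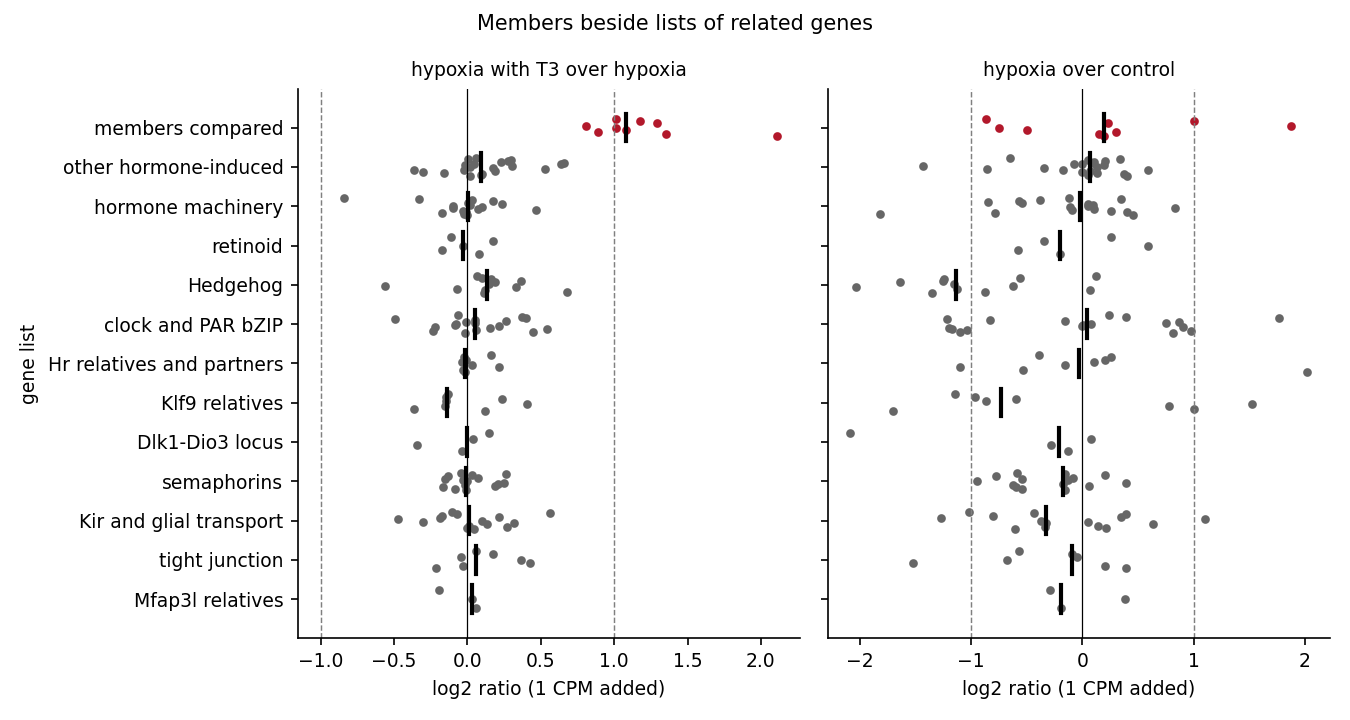
Log2 ratios (1 CPM added) of the 9 members compared (red) and of genes of related lists (grey), for hypoxia with T3 over hypoxia (left) and hypoxia over control (right), with list medians as black bars and dashed lines at 2-fold. In the left panel no gene of the lists reaches the dashed lines, while in the right panel the Hedgehog list lies mostly below 0.

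Most genes listed with Shh were lower in both hypoxic libraries than in control. Of 12 Hedgehog pathway genes compared, 7 were at least 2-fold lower in hypoxia than in control and none higher, against 4.92% of all genes lower, with a median log2 ratio of -1.14. Ptch1, the Hedgehog receptor and a target of the pathway, was at 7.02 CPM in hypoxia with T3, 6.41 CPM in hypoxia and 17.9 CPM in control. Gli3, a transcription factor of the pathway, was at 1.57, 1.05 and 7.42 CPM. Between the hypoxic libraries none of the 12 was 2-fold apart, with a median of 0.13, so that Shh was above control where Ptch1 and Gli3 were below it.

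Relatives of the nuclear members varied in their order. Kdm3a, a histone demethylase related to Hr, was at 196 CPM in hypoxia with T3, 199 CPM in hypoxia and 48.3 CPM in control, and Jmjd1c, another relative, at 55.8, 48.1 and 104 CPM. Klf13, a close relative of Klf9, was at 39.4 CPM in hypoxia with T3, 36.1 CPM in hypoxia and 120 CPM in control. Klf10, another Krüppel-like factor, had the order of Cldn12, at 40.4, 30.2 and 9.87 CPM. None of 8 relatives of Klf9 was 2-fold apart between the hypoxic libraries (median -0.14). Of 18 clock and PAR bZIP genes, none was 2-fold apart either, and Hlf, a PAR bZIP relative of Dbp, was at 3.53, 2.32 and 6.12 CPM. Ciart, a clock repressor, was at 11.6, 8.56 and 1.81 CPM, in the order of Shh.

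The groups around the enzymes and membrane proteins are short lists, and since 99.0% of all genes compared were within 1.5-fold between the hypoxic libraries, a count of 0 at 2-fold says little about these or the other lists. None of 5 retinoid genes compared was 2-fold apart (median -0.03), and the retinoic acid receptor Rarb was at 1.40 CPM in hypoxia with T3, 1.71 CPM in hypoxia and 3.06 CPM in control. In the imprinted locus that holds Dio3, Meg3, a noncoding RNA, was at 1217, 1250 and 1371 CPM, and Rian at 702, 684 and 651 CPM. None of 15 semaphorin and receptor genes (median -0.01), 15 genes of Kir channels and glial transport (median 0.01), 7 tight junction genes (median 0.06) or 3 relatives of Mfap3l (median 0.03) was 2-fold apart. Tjp1, the junction scaffold ZO-1, was at 30.1 CPM in hypoxia with T3, 22.1 CPM in hypoxia and 65.7 CPM in control, and Kcnj11, a Kir channel, at 8.72, 5.58 and 7.88 CPM.

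Patterns most like those of the members were sought by the distance between pairs of log2 ratios (hypoxia with T3 over hypoxia, hypoxia over control), over 3 libraries that both ratios share in part, among genes averaging 5 CPM or more. Arhgap20 and Epha4, an ephrin receptor, were nearest to Mfap3l (distances 0.166 and 0.173) and to Kcnj10 (0.209 and 0.264). Arhgap20 was at 140 CPM in hypoxia with T3, 77.5 CPM in hypoxia and 144 CPM in control, and Epha4 at 87.1, 46.7 and 93.5 CPM. Moap1 and Gdf10, a growth factor of the TGF-beta family, were nearest to Sema7a (0.124 and 0.167). Moap1 shares 85.7% of its words with transcripts of other genes. Moap1 was at 28.2, 13.97 and 19.7 CPM and Gdf10 at 18.0, 9.003 and 12.6 CPM. Bcl2l11 was nearest to Klf9 (0.443) and to Cyp26b1 (0.339), Arg2 to Dbp (0.215) and Ciart to Shh (0.424). Rn45s, the ribosomal RNA precursor, was nearest to Cldn12 (0.419), at 8649 CPM in hypoxia with T3, 5119 CPM in hypoxia and 2598 CPM in control. Snurf was nearest to Hr, at 0.579 the largest of these nearest distances, and shares all of its words with transcripts of other genes.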

How the data were processed

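RNA of 3 cultures was sequenced, 1 library per group, with a strand-specific kit per the labels' protocols. The submitters' processing notes name bcl2fastq 2.17, Bowtie2 2.1.0, RSEM 1.2.15 and mm10 without their roles. The authors deposited CPM values of 24054 genes, TMM-normalised per the file name. They also deposited 2 tables of 13152 genes against control, with a signed fold (treated as a score, minus the inverse where below 1), p-values with a false discovery rate from an unnamed test, and a signal that is CPM on another scale. All CPM values were whole multiples of 1 read within 0.01, so whole reads were recovered. With 1 library per group no test against variation between cultures was possible, and no test was run.

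Folds are CPM ratios with exact 95% Clopper-Pearson intervals on reads. Levels have exact Poisson intervals. Both cover counting error only, since PCR copies of a molecule were not told apart, and 0 reads are taken to allow for 3. Calls used log2 ratios with 1 CPM added, genes averaging 1 CPM or more and a 2-fold rule. The members, lists, markers and motifs were chosen with earlier results of these data known. Named genes were the members, up to 4 genes per list with the largest ratios plus list genes past 2-fold, genes 2-fold higher with T3, neighbours and the 2 most alike patterns per member. From these the text gives examples. GENCODE M21 (GRCm38) gave coordinates and exon lengths and RefSeq (GRCm38.p6) the sequences. Python 3.11.15, scipy 1.17.1, edgeR 4.0.16 and DESeq2 1.42.0 (size factors only) were used, and the ratio and interval calculations were tested on simulated data. Alternatives were the added value, the scaling and the filter.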

Additional observations from a re-analysis of the deposited data

How the results depend on the processing

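No paired analysis was possible because each group has 1 library, and no library could be left out. Of the 50 alternative log2 ratios of the members for hypoxia with T3 over hypoxia, all differed from the value reported by less than the fold's 95% counting bound lies from the fold on the log2 scale, as did 49 of 50 for hypoxia over control and 46 of 50 for hypoxia with T3 over control. This compares the shift with the width of the interval, since values with CPM added are smaller than the plain folds that the intervals belong to. The exceptions were Sema7a (−0.67 for hypoxia over control and 0.39 for hypoxia with T3 over control with equal sums, 0.49 with TMM recomputed), Kcnj10 (0.07) and Mfap3l (−0.05), both for hypoxia with T3 over control with equal sums.

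Members at least 2-fold higher in hypoxia over control numbered 1 instead of 2 with 2 CPM added, with equal sums, with TMM recomputed and with median-of-ratios size factors, each time without Cldn12. With equal sums 1 member, Mfap3l, was at least 2-fold lower, instead of 0. With 2 CPM added, 10 genes instead of 16 were at least 2-fold higher for hypoxia with T3 over hypoxia, and with a mean of at least 5 CPM 3 instead of 8 were lower. Equal sums gave 974 lower genes for hypoxia over control and 920 for hypoxia with T3 over control, instead of 624 and 582, and moved the median of all genes there by over 0.1, to −0.10 in both. For hypoxia with T3 over hypoxia, members at least 2-fold higher numbered 8 with 0.5 CPM added, where Dbp passed, and 5 with 2 CPM added, with equal sums and with median-of-ratios size factors, where Kcnj10 and Mfap3l did not. For hypoxia with T3 over control they numbered 5 instead of 6 with 2 CPM added and with a mean of at least 5 CPM, each time without Dbp. Depth limits Dio3 most, whose interval spans more than a 100-fold range.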
